A study of Mus musculus with 30 samples.

Results

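The 34 genes described here encode the enzymes, transporters and regulators of glycolysis and of the pentose phosphate pathway. They were chosen by symbol from both deposited count tables and not by their values. All 34 were present in each table, among 13353 genes for bone marrow (BM) and 17059 genes for F4/80+ cells sorted from visceral adipose tissue (adipose tissue macrophages, ATMs), and all 34 passed the filter on low counts. RNA was sequenced from C57BL/6J recipients that were wild-type (WT) or leptin-deficient Ob/Ob. According to the study's methods, every recipient was lethally irradiated and given an equal mix of Shp2 E76K/+;LysM-Cre+ CD45.2+ cells and CD45.1+ competitor cells of Boy/J mice. A figure legend of the paper instead describes the ATM comparison as mutant against WT donor cells in Ob/Ob mice. On that wording, the WT group of ATMs would be Ob/Ob recipients as well. Both the donor cells and the recipient genotype of the WT group of ATMs are therefore less certain. The Shp2 mutation activates a phosphatase of the Ras-ERK pathway, and LysM-Cre acts in myeloid cells, which limits where the mutation is switched on. The 5 groups were WT and 4 kinds of Ob/Ob recipients, which got vehicle (Vehicle), beinaglutide at 3 mg/kg (GLP1), an anti-IL-17A antibody at 200 µg per mouse 3 times a week (IL17) or both (Combo). Treatment of the Ob/Ob mice lasted 30 days and began 8 weeks after transplantation. For WT, no vehicle dosing, treatment length or treatment start is stated. In Vehicle vs WT, recipient genotype and dosing therefore cannot be told apart. Beinaglutide is an agonist of the GLP-1 receptor, and the antibody neutralizes the cytokine IL-17A. Each group had 3 libraries per tissue. The labels gave ages of 12 to 14 weeks and both sexes, and they gave neither a donor nor a mouse for a single library. These ages cannot be those of the Ob/Ob mice at RNA collection. The recipients were already adult at transplantation, and the wait and the treatment came after it. The age at sampling is therefore not known from the labels.

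Glycolysis takes up glucose through SLC2A transporters, traps it as glucose-6-phosphate through hexokinases, and splits it into pyruvate, which is either reduced to lactate and exported or passed to the mitochondria by pyruvate dehydrogenase. The pentose phosphate pathway branches off at glucose-6-phosphate, makes NADPH in its oxidative arm and returns sugars to glycolysis in its non-oxidative arm. Neutrophils and activated macrophages are known for high glycolytic use of glucose, and phagocytes spend NADPH on the oxidative burst.

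BM libraries held 31086184 to 39925495 counts on genes and ATM libraries 24876074 to 45300263. The biological coefficient of variation between libraries of a group was 3.51% in BM and 32.5% in ATMs, so smaller changes passed the test in BM, and since the labels do not tie libraries to mice, the p-values measure only the spread between these libraries. The library labelled WT replicate 1 of BM stood apart from the other WT libraries of BM (chi-square per gene of 39.0 and 29.9, against 3.09 between the other two). Without it, 33 of the 34 genes still passed in Vehicle vs WT of BM, and Eno1 did not. In Combo vs WT of BM, 30 of the 32 genes that had passed did so without it, and Eno1 and Taldo1 did not. Several features of the libraries moved with the groups. Xist averaged 188 CPM (counts per 1000000 of the TMM-scaled library) in BM of Vehicle and 104 CPM in Combo, against 0.0455 CPM in WT, 0.0622 CPM in GLP1 and 2.83 CPM in IL17, and in ATMs it averaged 37.7 CPM in Vehicle and 34.03 CPM in Combo against 0.491 CPM or less in the other groups. Sex composition and treatment therefore cannot be told apart, and Pgk1, Pdha1, Pdk3 and G6pdx lie on the X chromosome.

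The cell makeup moved with the groups as well. Of the 8 neutrophil markers, all 8 were in the table of ATMs, and their summed level was 21499 to 22760 CPM in Vehicle and 12455 to 12815 CPM in Combo, against 179 to 403 CPM in the other 3 groups. The 10 macrophage markers summed to 2642 to 2816 CPM in ATMs of Vehicle, 4507 to 4736 CPM in WT and 10855 to 16209 CPM in the treated groups, and none was at 0 in any library. Adgre1, which encodes F4/80 itself, averaged 42.3 CPM in Vehicle, 208 CPM in WT and 390 to 875 CPM in the treated groups. The 8 fibroblast and endothelial markers reached 6390 to 22277 CPM in all ATM groups, epididymal genes reached 3000 to 3147 CPM in WT, and pancreatic enzymes reached 1071 to 1085 CPM in Combo. In ATMs the 7 measured erythroid markers summed to 6752 to 6832 CPM in Vehicle, 5483 to 5627 CPM in Combo, 3918 to 4140 CPM in WT and 1211 to 1612 CPM in GLP1 and IL17. In BM, the 10 macrophage markers summed to 13207 to 13495 CPM in WT, 4203 to 4237 CPM in Vehicle and 3564 to 6645 CPM in the treated groups, and the 10 B cell markers to 1388 to 1427 CPM in WT, 411 to 434 CPM in Vehicle and 136 to 468 CPM in the treated groups. The 6 monocyte markers of BM summed to 16269 to 16339 CPM in Vehicle and 6180 to 8956 CPM elsewhere, the 7 measured erythroid markers were highest in GLP1 (2882 to 2923 CPM) and the 8 neutrophil markers highest in Combo (128800 to 130393 CPM). The part of these differences in the results was not tested, and in such samples more cells of a type and more RNA per cell cannot be told apart.

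**Figure D1:**
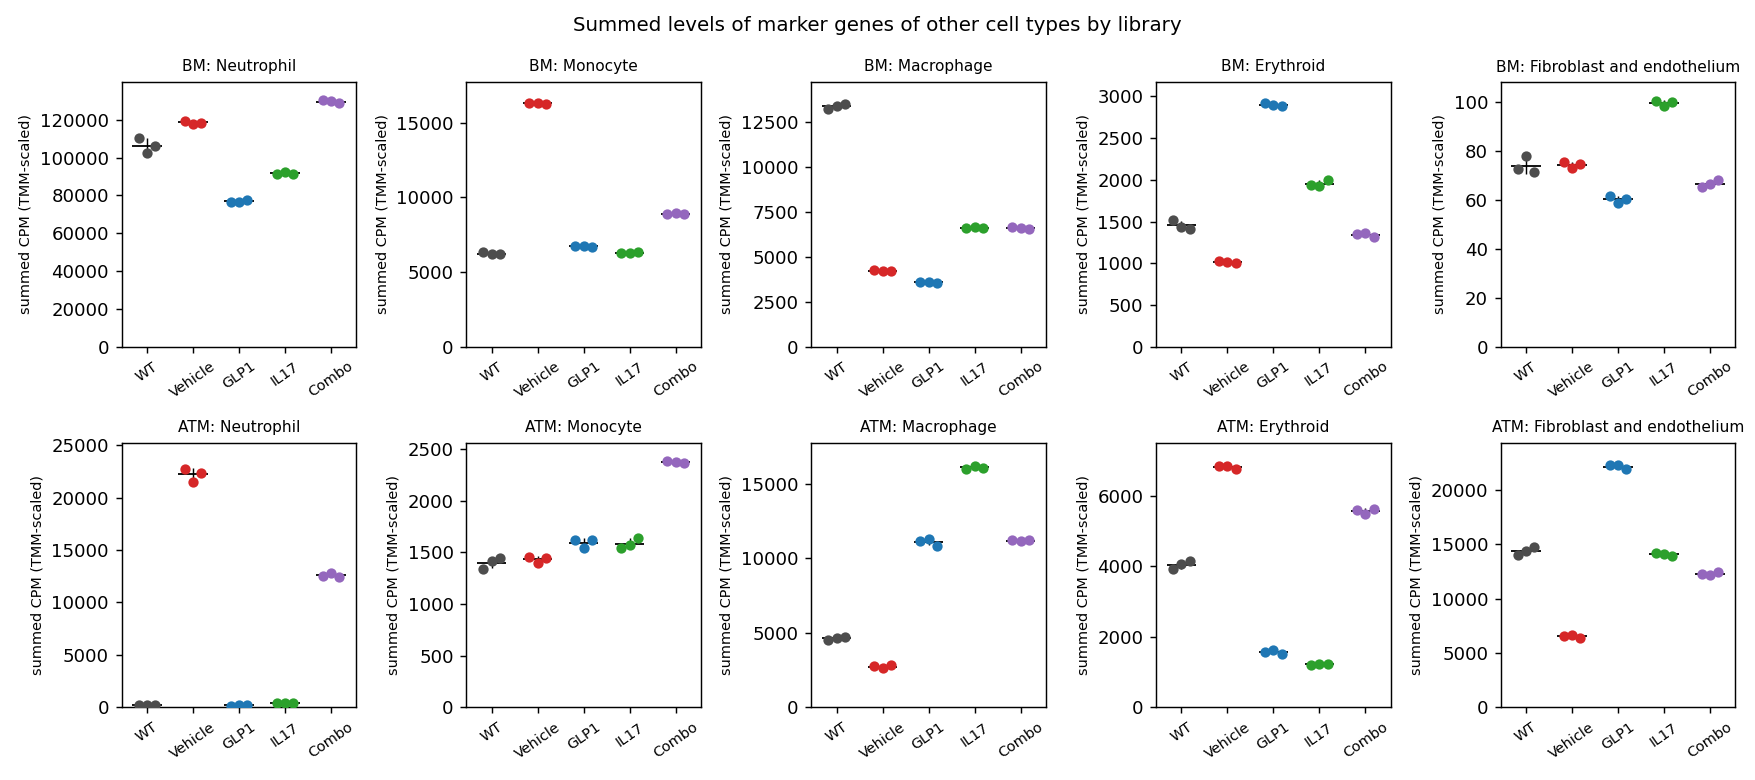
Summed levels of marker genes of 5 cell types in each library (y axis, TMM-scaled CPM, starting at 0) by group (x axis), for BM in the upper row and ATMs in the lower row. Points are libraries, lines are group means and vertical bars are 1 SD (n = 3); in ATMs the neutrophil sum is high in Vehicle and Combo, and the macrophage sum is lowest in Vehicle.

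The share of all counts that fell on the 34 genes differed between every pair of Vehicle and another group in ATMs without overlap. In ATMs it was 0.604% to 0.625% in WT, 1.08% to 1.09% in Vehicle, 0.702% to 0.731% in GLP1, 0.872% to 0.901% in IL17 and 1.04% in Combo. In BM the order was another one. The share was 0.983% to 1.07% in WT, 1.35% to 1.37% in Vehicle, 1.12% to 1.13% in GLP1, 1.36% to 1.38% in IL17 and 1.74% to 1.75% in Combo. The Combo libraries of BM thus held the highest share of that tissue, whereas in ATMs the Vehicle libraries did, and Vehicle and IL17 libraries of BM overlapped. These shares are not TMM-scaled. With TMM scaling the highest groups stayed the same, but IL17 of BM (12948 to 13126 CPM summed) lay below Vehicle (14426 to 14793 CPM). Combo of ATMs (9449 to 9505 CPM) then lay further below Vehicle (13082 to 13354 CPM).

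**Figure D2:**
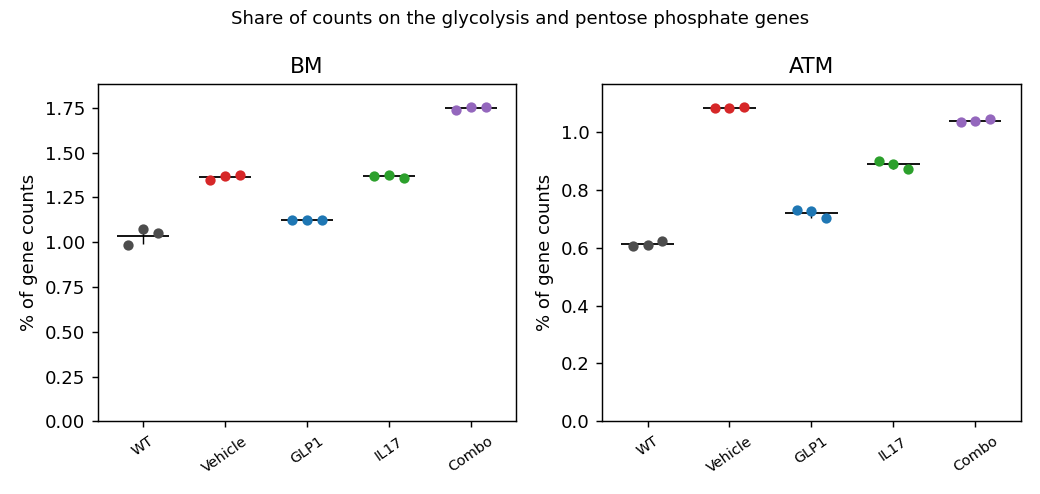
Percent of all gene counts in a library that fell on the 34 genes (y axis, starting at 0) by group (x axis), in BM and ATMs. Points are libraries, lines group means and bars 1 SD (n = 3); Combo is highest in BM, and Vehicle is highest in ATMs.

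In BM, obese Vehicle mice had higher levels of most glycolytic genes and lower levels of most pentose phosphate genes than WT recipients. Of the 34 genes, 22 rose and 12 fell past a false discovery rate of 0.05 (edgeR), where 37.8% of all genes tested rose and 38.8% fell, so that 76.6% of all genes passed and passing says little of a gene in BM. The median log2 fold change of the 34 was 0.55 against -0.02 over all genes. With a log2 fold change beyond 1 in addition, 7 rose and 0 fell, against 9.44% and 10% of all genes, and the 7 were Pdk4, Slc2a1, Pfkp, Pfkl, Hif1a, Tpi1 and Gapdh. All 5 genes of lower glycolysis rose (log2 fold changes 0.60 to 1.13), whereas 4 of the 5 pentose phosphate genes fell. Eno1, counted in lower glycolysis, rests on 29 to 66 counts per library here. Its change did not pass with total-count scaling, with only the groups compared or without certain single libraries.

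In ATMs, Vehicle vs WT gave larger differences, with the donor cells and recipient genotype of WT less certain there. Of the 34 genes, 24 rose, 7 fell and 3 (Aldoc, Eno1 and Pdk3) did not pass, against 24.3% of all genes that rose and 32.6% that fell. The median was 0.98 against -0.21 over all genes, and 16 rose and 3 fell by a log2 fold change beyond 1, against 12.5% and 22.9% of all genes. The 3 that fell that far were Pfkm, Ldhb and Slc16a1. Scaling to total counts moved the median of all genes to -0.65 and that of the 34 to 0.54, so the distance between them was 1.20 either way. The rise of Slc2a3, Pfkp and G6pdx did not pass with that scaling. The part of the neutrophil markers, high in these Vehicle libraries as given above, was not tested.

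With GLP1, most of these genes were lower than in Vehicle in both tissues. The treated groups share the Vehicle libraries, so that a high or low Vehicle library moves all of these comparisons at once. In BM, 9 rose and 23 fell (36.5% and 36.3% of all genes), with a median of -0.53 against 0.01, although Hk1 and Pgd, counted among those that fell, turned to 0.08 and 0.13 with total-count scaling, which gave 13 higher and 20 lower. In ATMs, 8 rose and 21 fell (31.8% and 22% of all genes), with a median of -0.67 against 0.19. By a log2 fold change beyond 1, 2 rose and 7 fell in BM (7.6% and 9.08% of all genes), and 3 rose and 10 fell in ATMs (20.8% and 10.9%).

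With the anti-IL-17A antibody, 15 genes rose and 18 fell in BM (36.4% and 36.6% of all genes, median -0.19 against 0.01). The 15 included all 5 pentose phosphate genes, and all 5 genes of lower glycolysis, with Eno1 on few counts, were among the 18. Total-count scaling gave 16 higher and 16 lower in BM, with a median of -0.015 against 0.18 over all genes. In ATMs, 8 rose and 21 fell (33.1% and 25% of all genes, median -0.36 against 0.17), but total-count scaling gave 12 higher and 13 lower there, turning Slc2a3, Gpi1, G6pdx and Taldo1. With that scaling, the median in ATMs was -0.0094 against 0.52 over all genes. By a log2 fold change beyond 1, 2 rose and 5 fell in BM (7.65% and 8.46% of all genes), and 4 rose and 8 fell in ATMs (22.4% and 13.1%).

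With both agents, BM and ATMs differed. In BM, 20 genes rose and 11 fell (37.9% and 35.8% of all genes, median 0.32 against 0.02), and 6 rose and 1 fell by a log2 fold change beyond 1 (6.58% and 11.1% of all genes). The 6 were Aldoc, Hk3, G6pdx, Pgd, Ldhb and Tkt, 3 of them pentose phosphate genes, and the 1 that fell was Pdk4. In ATMs, 8 rose and 20 fell (25% and 23.7% of all genes, median -0.29 against 0), but total-count scaling gave 16 higher and 11 lower with a median of 0.13, since it moved the median of all genes to 0.41; relative to all genes the 34 stood 0.29 and 0.28 lower. Beyond a log2 fold change of 1, 4 rose and 9 fell in ATMs (14.1% and 12.2% of all genes).

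**Figure D3:**
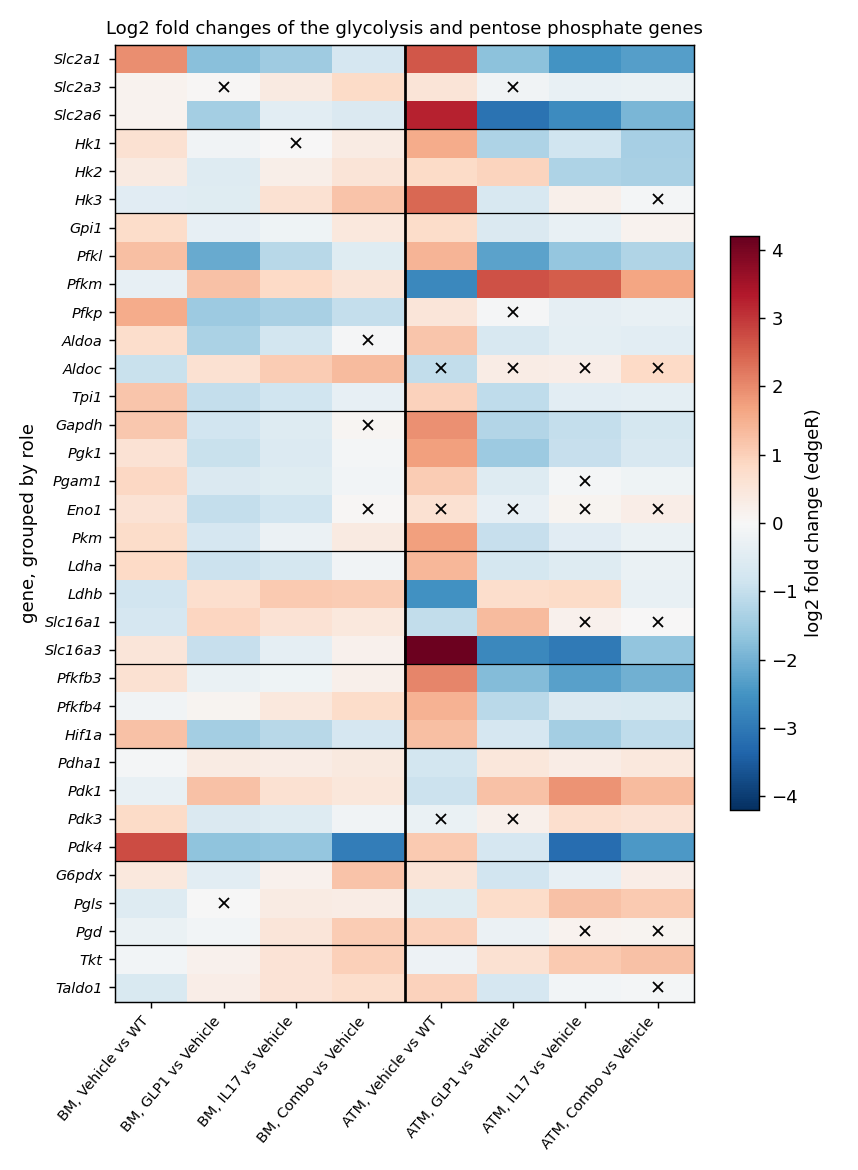
Log2 fold changes of the 34 genes (rows, grouped by role and separated by lines) in 4 comparisons of BM and 4 of ATMs (columns), on a linear colour scale. Crosses mark values that did not pass a false discovery rate of 0.05; Slc2a1, Pfkl and Gapdh are red in both Vehicle vs WT columns, and Pfkm and Ldhb are blue there.

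The combination was also compared with each agent alone. In BM, 29 of the 34 genes were higher in Combo than in GLP1 and 3 lower (36.1% and 35.3% of all genes, and 27 and 5 genes with total-count scaling), and 26 were higher than in IL17 and 4 lower (30.9% and 21.7%, and 23 and 8 genes with total-count scaling). By a log2 fold change beyond 1, 10 were higher than in GLP1 (4.59% of all genes), and G6pdx alone was higher than in IL17 (1.04%), an edge call at 1.01 on the log2 scale. In ATMs, the counts were 19 higher and 8 lower against GLP1 (15.2% and 24.6% of all genes), and 11 higher and 4 lower against IL17 (10.7% and 17.9%), with 2 lower without IL17 replicate 1. On the log2 scale, Combo in BM lay above the sum of the single-agent changes for 25 genes and below it for 6 (35.6% and 33.1% of all genes), and 21 and 10 with total-count scaling, with a median departure of 1.01 against 0.0044 over all genes. In ATMs, 20 lay above and 8 below (20.7% and 29.8%), with a median of 0.68 against -0.21. This departure sets Vehicle and Combo against GLP1 and IL17. Xist in both tissues and the neutrophil markers of ATMs, given above, split these groups in the same way. A departure from additivity therefore cannot be told apart from sex composition or, in ATMs, from cell makeup. Compared with WT, Combo had 29 higher and 3 lower genes in BM (36.1% and 37.2% of all genes, and 24 and 4 genes with total-count scaling). In ATMs, 23 were higher and 6 lower (17.8% and 23.2%), also with total-count scaling. Leaving out any single WT or Combo library of ATMs ended 3 to 5 of these calls.

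Of the 3 glucose transporters, Slc2a1, which encodes the widespread transporter GLUT1, had the largest rise in Vehicle of BM. Its levels there were 80.7, 85.0 and 80.6 CPM, against 21.4, 22.8 and 20.1 CPM in WT. It was 23.3 to 25.4 CPM in GLP1, 28.1 to 30.6 CPM in IL17 and 47.7 to 51.8 CPM in Combo, so that no treated library reached a Vehicle library. The log2 fold change was 1.94 (SE 0.05, edgeR adjusted p = 1.26e-30) in Vehicle vs WT and -1.75 (SE 0.05), -1.48 (SE 0.05) and -0.71 (SE 0.05) with GLP1, IL17 and Combo. In ATMs, Slc2a1 was at 548, 575 and 538 CPM in Vehicle and at 86.4, 92.9 and 94.0 CPM in WT. The treated libraries lay at 157 to 187 CPM in GLP1, 90.1 to 109 CPM in IL17 and 107 to 122 CPM in Combo. The GLP1 libraries were thus the highest of the treated ATM libraries, and IL17 overlapped WT.

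Slc2a6, a lysosomal member of the transporter family, separated the tissues. In ATMs it was at 167, 122 and 150 CPM in Vehicle and at 12.9, 17.3 and 16.8 CPM in WT (log2 fold change 3.22, SE 0.17). GLP1 libraries held 13.6 to 20.4 CPM, IL17 libraries 21.3 to 25.0 CPM and Combo libraries 34.6 to 43.2 CPM, and the order of the treated groups thus ran from GLP1 to Combo. In BM, Slc2a6 was 46.5 to 50.6 CPM in Vehicle and 40.7 to 45.8 CPM in WT, a log2 fold change of 0.16 (SE 0.05) that did not pass with total-count scaling. Slc2a3, the high-affinity transporter GLUT3, rose in Combo of BM, where it was at 597 to 608 CPM against 339 to 354 CPM in Vehicle. In ATMs its change in Combo vs Vehicle was -0.29 on the log2 scale, and it turned to 0.13 with total-count scaling.

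The hexokinases commit glucose to the cell, and the 3 isozymes differed between the tissues. Per length of transcript, Hk3, the isozyme of granulocytes and monocytes, made up 77.2% to 77.8% of hexokinase counts in BM of WT and 62.5% to 63.5% in Vehicle, whereas in ATMs it was 21.7% to 24.5% in WT and 38.4% to 41.8% in Vehicle. In BM, Hk3 was at 257, 270 and 263 CPM in Vehicle, below 356, 373 and 363 CPM in WT, and rose to 604, 608 and 613 CPM in Combo (log2 fold change vs Vehicle 1.21, SE 0.02, edgeR adjusted p = 9.22e-35). IL17 lay between at 404 to 411 CPM, and GLP1 was lowest at 180 to 185 CPM. In ATMs, Hk3 was at 136, 151 and 135 CPM in Vehicle and at 25.8, 24.5 and 28.8 CPM in WT (log2 fold change 2.42, SE 0.10). It stayed between 79.3 and 184 CPM in all treated ATM libraries, with no overlap with WT, and the change in Combo vs Vehicle did not pass (-0.09, SE 0.09). The change in IL17 vs Vehicle, 0.22 (SE 0.09), did not pass with the replicate number as a block, with only the groups compared, or without Vehicle replicate 1, Vehicle replicate 3 or IL17 replicate 1.

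Hk1 and Hk2, the widespread and the inducible isozyme, are also shown for ATMs in the paper on these libraries, so their direction there is not independent evidence. In ATMs, Hk1 was at 333, 350 and 325 CPM in Vehicle, 111, 118 and 115 CPM in WT, 125 to 141 CPM in GLP1, 172 to 201 CPM in IL17 and 120 to 131 CPM in Combo. Every treated library lay below every Vehicle library. Hk2 was at 98.7, 95.5 and 124 CPM in Vehicle and at 56.4, 60.9 and 63.3 CPM in WT. It was higher with GLP1, at 207, 188 and 211 CPM (log2 fold change 0.93, SE 0.10), and lower with IL17, at 42.3, 41.2 and 46.7 CPM (-1.29, SE 0.10), and Combo, at 40.6, 39.7 and 43.3 CPM (-1.36, SE 0.10). In ATMs Hk2 thus differed from Vehicle in opposite directions in GLP1 and IL17, and Combo lay on the side of IL17. In BM the directions of GLP1 and IL17 were reversed (log2 fold changes -0.53, SE 0.05, and 0.26, SE 0.04), and Combo again lay on the side of IL17 (0.53, SE 0.04). Hk2 was 79.6 to 81.1 CPM in Vehicle, 51.8 to 58.5 CPM in GLP1, 94.1 to 97.3 CPM in IL17 and 111 to 121 CPM in Combo, and Hk1 was highest in Combo at 301 to 311 CPM against 243 to 244 CPM in Vehicle.

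Phosphofructokinase, the committed step of glycolysis, has liver (Pfkl), muscle (Pfkm) and platelet (Pfkp) isozymes, and the muscle isozyme moved against the others in both tissues. In BM, Pfkl was at 102, 102 and 108 CPM in Vehicle, 38.0, 47.7 and 43.3 CPM in WT, 22.7 to 25.0 CPM in GLP1, 43.9 to 48.7 CPM in IL17 and 71.8 to 75.7 CPM in Combo. Its log2 fold change was 1.28 (SE 0.06) in Vehicle vs WT and -2.12 (SE 0.06) with GLP1, the largest fall of any of the 34 genes in that comparison of BM. Pfkp in BM was at 169, 180 and 170 CPM in Vehicle and at 59.5, 58.9 and 59.8 CPM in WT, and 59.3 to 60.7 CPM in GLP1, 64.9 to 69.3 CPM in IL17 and 84.9 to 89.9 CPM in Combo. The GLP1 libraries thus overlapped WT for Pfkp and lay below WT for Pfkl. Pfkm in BM was 24.3 to 26.6 CPM in Vehicle, 30.3 to 33.9 CPM in WT and highest in GLP1 at 58.2 to 60.1 CPM.

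In ATMs, Pfkm was at 4.51, 1.02 and 4.19 CPM in Vehicle and at 20.0, 22.3 and 21.0 CPM in WT (log2 fold change -2.70, SE 0.39). The Vehicle values rest on 23 to 112 counts per library. Pfkm was at 23.5, 25.2 and 13.1 CPM in GLP1, 20.5, 18.9 and 18.02 CPM in IL17 and 8.59, 12.0 and 10.5 CPM in Combo, all above Vehicle. Pfkl in ATMs was at 203, 179 and 204 CPM in Vehicle, 69.7 to 73.7 CPM in WT, 39.2 to 44.4 CPM in GLP1, 55.6 to 69.8 CPM in IL17 and 79.3 to 84.0 CPM in Combo. Pfkp in ATMs was 259 to 282 CPM in Vehicle and 191 to 197 CPM in WT, and its change in Combo vs Vehicle, -0.32, turned to 0.09 with total-count scaling.

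Shares of a family within a library do not depend on scaling between libraries. They were chosen after the values had been seen and are given without a test. Reads on exons shared with other genes enter these shares, and 10.7% of the exon length of Pfkm is shared in this way. Per length, Pfkm made up 44.7% to 48.1% of phosphofructokinase counts in BM of WT, 20.5% to 21.6% in Vehicle, 68.1% to 69.1% in GLP1, 52.1% to 54.9% in IL17 and 37.6% to 39.7% in Combo. In ATMs it was 19.6% to 20.8% in WT, 0.656% to 2.56% in Vehicle, 12.97% to 22.9% in GLP1, 18.1% to 18.8% in IL17 and 8.32% to 11.1% in Combo. In both tissues, Vehicle had the lowest share of the muscle isozyme and Combo the next lowest, with no overlap between the libraries of these groups and any other group. The aldolases of BM differed from each other. Aldoa, the main aldolase, was 1066 to 1101 CPM in BM of Vehicle against 612 to 672 CPM in WT, and 422 to 444 CPM in GLP1. Aldoc, a minor aldolase at 0.833 to 2.87 CPM in BM, was highest there in Combo at 2.87, 2.49 and 2.64 CPM against 0.912, 0.833 and 1.45 CPM in Vehicle, on 27 to 97 counts, a log2 fold change of 1.33 (SE 0.23).

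In the lower part of glycolysis, Gapdh and Pkm ranked high among the 34 genes in both tissues. Per kilobase of transcript, Gapdh stood first among the 34 in Vehicle of both tissues, at 616 ± 10.4 CPM (SD, n = 3) in BM and 540 ± 7.87 CPM in ATMs. In WT it was 282 ± 22.6 CPM per kilobase in BM, second to Taldo1 at 361 ± 18.4, and 143 ± 3.08 in ATMs, below Aldoa and Ldha. Pkm, which encodes pyruvate kinase of most tissues, was 2069 to 2122 CPM in BM of Vehicle, 1157 to 1265 CPM in WT and 2713 to 2748 CPM in Combo. In ATMs, Pkm was 2059 to 2108 CPM in Vehicle, 618 to 662 CPM in WT and 1656 to 1750 CPM in Combo, a change vs Vehicle of -0.29 that turned to 0.13 with total-count scaling. Pgk1 followed the same order in ATMs, with 213 to 217 CPM in Vehicle and 57.3 to 70.5 CPM in WT. Reads of several of these genes can also match processed pseudogenes, and only reads above the mapping quality limit were counted, so their levels are uncertain. Eno1 was at 0.721 to 5.44 CPM in all 30 libraries, far below its neighbours in the pathway, and a near-identical retrogene, Eno1b, was at 3.59 CPM or less, so Eno1 is uncertain here.

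The isoforms of lactate dehydrogenase and of lactate export also split in ATMs. Ldha, the subunit that favours lactate, was 1656 to 1796 CPM in ATMs of Vehicle and 642 to 675 CPM in WT, whereas Ldhb, the heart subunit, was at 43.4, 36.2 and 35.5 CPM in Vehicle and at 214, 218 and 236 CPM in WT (log2 fold change -2.54, SE 0.10). Per length, Ldhb made up 41.2% to 42.5% of both in ATMs of WT, 4.01% to 5.23% in Vehicle, 10.9% to 11.9% in GLP1, 9.71% to 11.7% in IL17 and 4.30% to 4.55% in Combo. In BM, Ldhb was 5.04% to 5.43% in WT and 1.70% to 1.81% in Vehicle. Combo of ATMs overlapped Vehicle in this share, and all other groups of ATMs lay above. Ldha and Ldhb both had negative changes in Combo vs Vehicle of ATMs, -0.26 and -0.30, which turned to 0.15 and 0.11 with total-count scaling.

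The lactate exporter Slc16a3 (MCT4) had the largest change of the 34 genes. In ATMs it was at 324, 332 and 324 CPM in Vehicle and at 21.7, 15.2 and 19.6 CPM in WT, a log2 fold change of 4.12 (SE 0.11, edgeR adjusted p = 4.3e-14). It was 45.1 to 51.8 CPM in GLP1, 40.9 to 44.5 CPM in IL17 and 99.2 to 107 CPM in Combo, where each treated group lay between WT and Vehicle without overlap with either. Slc16a1 (MCT1), which carries lactate both ways, was 73.1 to 117 CPM in Vehicle, 178 to 188 CPM in WT and 210 to 230 CPM in GLP1. Slc16a1 made up 90.8% to 93.7% of both transporters per length in ATMs of WT, 21.3% to 30.2% in Vehicle, 83.0% to 86.0% in GLP1, 71.8% to 75.6% in IL17 and 47.9% to 53.9% in Combo. In BM the share was 46.2% to 49.7% in WT, 26.8% to 29.0% in Vehicle and 58.2% to 59.6% in GLP1. Vehicle was lowest in both tissues.

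**Figure D4:**
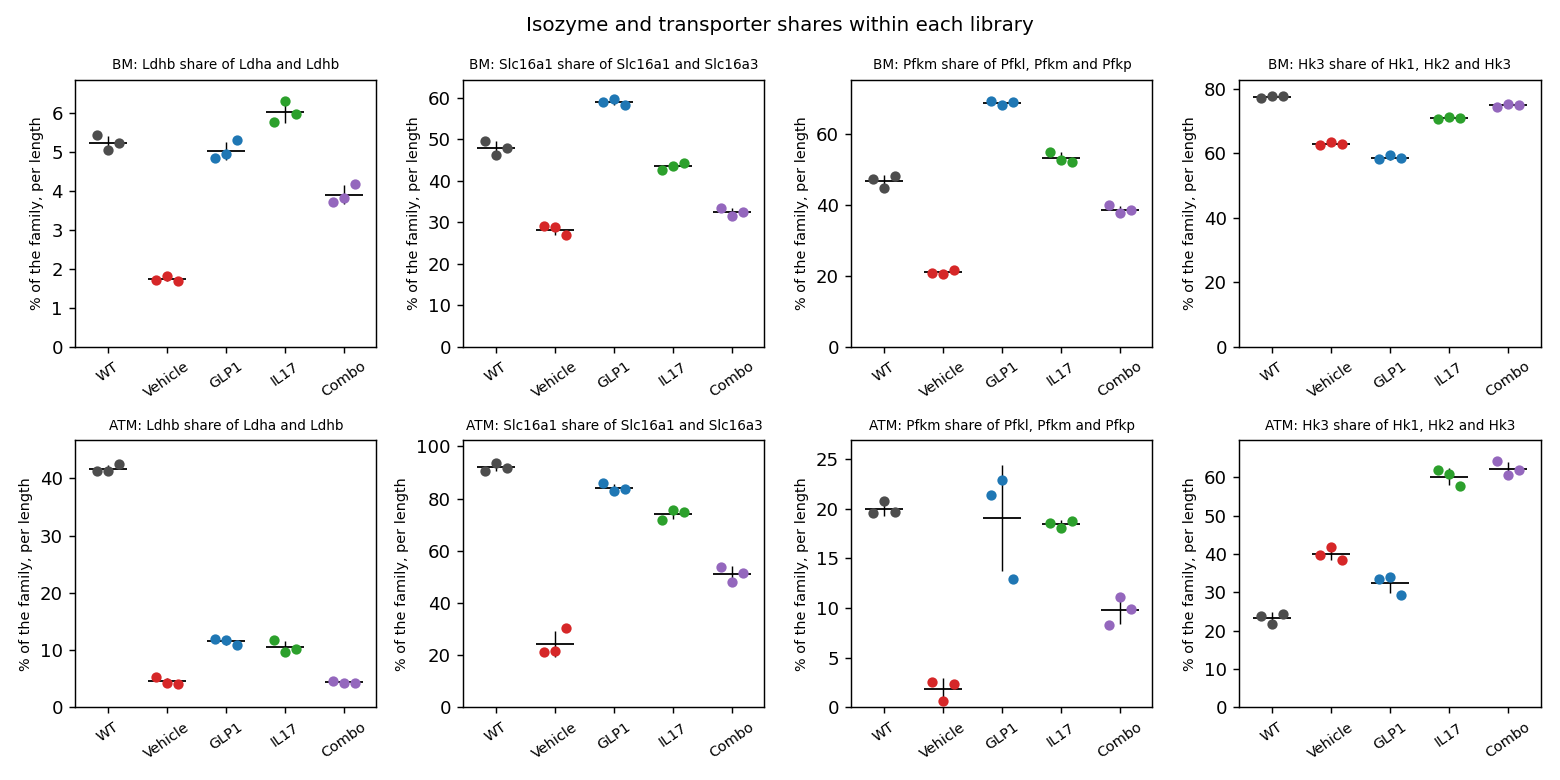
Share of a family's length-corrected counts that fell on 1 member (y axis, percent, starting at 0) in each library by group (x axis), for Ldhb, Slc16a1, Pfkm and Hk3, with BM in the upper row and ATMs in the lower row. Points are libraries, lines group means and bars 1 SD (n = 3); the shares of Pfkm and Slc16a1 are lowest in Vehicle in both tissues.

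Promoters of members that moved in opposite directions are shown because many of these genes are textbook targets of the hypoxia-inducible transcription factors, whose core motif is ACGTG or GCGTG on either strand (CACGT or CACGC on the other). The sequences are from RefSeq (GRCm38.p6), which held 33 of the 34 genes (not Slc2a3). In windows of 300 bases around the start sites, 31 of these 33 genes held the motif in at least 1 window, against 46.7% of 27025 genes, and 39 of 47 windows of these genes did, against 43.8% of 32851 windows. The palindrome CACGTG holds the motif on both strands. Stretches of 60 bases that lie outside the annotated exons of the gene are given for Ldha and Ldhb, Pfkl and Pfkm, and Pfkfb3 and Pdk1, with capitals for the motif.
Ldha, chr7:46845742-46845801, + strand: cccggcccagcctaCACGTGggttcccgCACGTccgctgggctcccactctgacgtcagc
Ldhb, chr6:142508052-142508111, - strand: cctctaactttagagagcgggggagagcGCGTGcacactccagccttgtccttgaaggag
Pfkl, chr10:78009875-78009934, - strand: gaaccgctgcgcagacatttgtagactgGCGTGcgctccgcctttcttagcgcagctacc
Pfkm, chr15:98092426-98092485, + strand: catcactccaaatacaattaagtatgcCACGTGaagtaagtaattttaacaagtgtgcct
Pfkfb3, chr2:11502111-11502170, - strand: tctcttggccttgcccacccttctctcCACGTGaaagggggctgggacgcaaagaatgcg
Pdk1, chr2:71873118-71873177, + strand: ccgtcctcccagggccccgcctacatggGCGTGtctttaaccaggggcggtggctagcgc
The stretches were cut around a motif. Its presence in genes that rose in Vehicle (Ldha, Pfkl, Pfkfb3) and in genes that fell (Ldhb, Pfkm, Pdk1) was thus fixed by the choice. The shares over all genes and windows cover every gene in that set, expressed or not, so they are no measure of enrichment among expressed genes. The presence of the motif is a description of these letters and not of binding.

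The regulators rose in Vehicle of ATMs. Pfkfb3, which makes the activator of phosphofructokinase, was at 220, 239 and 211 CPM in Vehicle and at 66.6, 41.1 and 52.3 CPM in WT (log2 fold change 2.07, SE 0.14). It was 59.1 to 66.2 CPM in GLP1, 42.0 to 49.9 CPM in IL17 and 47.6 to 59.2 CPM in Combo, and all treated libraries lay within the range of WT. In BM, Pfkfb3 was 114 to 119 CPM in Vehicle, 74.1 to 74.6 CPM in WT and 131 to 138 CPM in Combo. Hif1a, which encodes the oxygen-regulated subunit of the factor named above, was 141 to 148 CPM in Vehicle of BM, 57.2 to 67.5 CPM in WT, 52.2 to 54.1 CPM in GLP1, 63.6 to 65.9 CPM in IL17 and 85.2 to 89.8 CPM in Combo. In ATMs it was 697 to 780 CPM in Vehicle and 293 to 318 CPM in WT (log2 fold change 1.26, SE 0.06), with 433 to 460 CPM in GLP1, 253 to 287 CPM in IL17 and 333 to 369 CPM in Combo. Pfkfb4, a related enzyme, rose in Vehicle of ATMs (1.45, SE 0.19) and fell in Vehicle of BM (-0.16, SE 0.03).

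Pyruvate dehydrogenase and the kinases that inhibit it did not move as 1 group. Pdk4, the kinase induced by fasting and fatty acids, is also shown for ATMs in the paper on these libraries, so its direction there is not independent evidence. It was at 116, 122 and 101 CPM in ATMs of Vehicle and at 49.8, 55.8 and 53.4 CPM in WT. It was 65.2 to 71.9 CPM in GLP1, 10.2, 15.01 and 11.5 CPM in IL17 and 22.1, 17.1 and 24.7 CPM in Combo. The IL17 and Combo libraries of ATMs therefore lay below WT, and GLP1 lay above it (log2 fold changes vs Vehicle -3.21, SE 0.16, for IL17 and -2.41, SE 0.15, for Combo). In BM, Pdk4 was near the floor, with 20 to 52 counts per library in Vehicle and 3 to 22 counts in the other groups, so its log2 fold changes there (2.75, SE 0.47, in Vehicle vs WT, and -1.70, -1.64 and -2.91 with GLP1, IL17 and Combo) rest on few reads. Pdk1 went the other way. It was 31.8 to 36.8 CPM in Vehicle of BM, 41.1 to 43.2 CPM in WT and 78.2 to 83.0 CPM in GLP1, and in ATMs 12.6 to 21.8 CPM in Vehicle, 30.9 to 32.9 CPM in WT and 54.0 to 69.6 CPM in IL17. Pdha1, the catalytic subunit of the dehydrogenase, was 78.8 to 81.2 CPM in Vehicle of ATMs, below 129 to 139 CPM in WT, and it rose in all 3 treated groups (log2 fold changes 0.31 to 0.47).

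Of the 3 genes of the oxidative arm of the pentose phosphate pathway, G6pdx and Pgd were highest in Combo of BM, and Pgls was highest in WT. G6pdx, its first and rate-limiting enzyme, was at 1229, 1235 and 1250 CPM in Combo, against 535, 539 and 551 CPM in Vehicle, 367, 405 and 411 CPM in WT, 400 to 401 CPM in GLP1 and 616 CPM in all 3 IL17 libraries. Its log2 fold change in Combo was 1.19 (SE 0.03, edgeR adjusted p = 5.18e-32) vs Vehicle and 1.65 (SE 0.03) vs WT. Pgd, the second NADPH-producing enzyme, was 1276 to 1302 CPM in Combo, 613 to 617 CPM in Vehicle and 740 to 754 CPM in WT. Pgls, the lactonase between them, averaged 112 CPM in WT, 96.7 CPM in IL17, 96.0 CPM in Combo, 76.96 CPM in Vehicle and 75.5 CPM in GLP1. Its log2 fold change in Combo was 0.32 (SE 0.04) vs Vehicle and -0.22 (SE 0.04) vs WT, and 20.6% of its exon length is shared with another gene, whose reads count for both. The same limit holds for 13.6% of the exon length of G6pdx and 11.5% of that of Gpi1. It also holds for 16.1% of Pdha1, 15.3% of Pkm and 10.7% of Pfkm. G6pdx made up 54.4% to 54.6% of the length-corrected counts on the enzymes at the branch point, G6pdx and Gpi1, in Combo of BM, 41.4% to 42.0% in Vehicle and 46.7% to 47.7% in WT. The Combo libraries lay above all other BM libraries in this share.

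Both genes of the non-oxidative arm rose in Combo vs Vehicle of BM. Tkt, the transketolase, was 1914 to 1934 CPM in Combo, 946 to 977 CPM in Vehicle and 996 to 1073 CPM in WT, and Taldo1, the transaldolase, was 814 to 841 CPM in Combo, 489 to 512 CPM in Vehicle and 737 to 808 CPM in WT. The change of Taldo1 in Combo vs WT was 0.08 (SE 0.03), turning to -0.07 with total-count scaling, and it did not pass with at least 10 counts in every library, with only the groups compared or without WT replicate 1. In ATMs, Tkt rose with all 3 treatments, from 114 to 123 CPM in Vehicle to 178 to 195 CPM in GLP1, 243 to 265 CPM in IL17 and 269 to 291 CPM in Combo, while WT was at 134 to 144 CPM. G6pdx in ATMs was 258 to 278 CPM in Combo and 220 to 227 CPM in Vehicle, a log2 fold change of 0.28 (SE 0.08). Together the 5 pentose phosphate genes took 30.7% to 30.8% of the length-corrected counts on the 34 genes in BM of WT and 18.1% to 18.3% in Vehicle, and 27.4% to 29.2% in the treated groups. In ATMs they took 10.99% to 11.4% in WT, 7.75% to 8.29% in Vehicle, 9.79% to 10.1% in GLP1 and 12.2% to 12.9% in IL17 and Combo. Vehicle was lowest in both tissues, with no overlap.

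**Figure D5:**
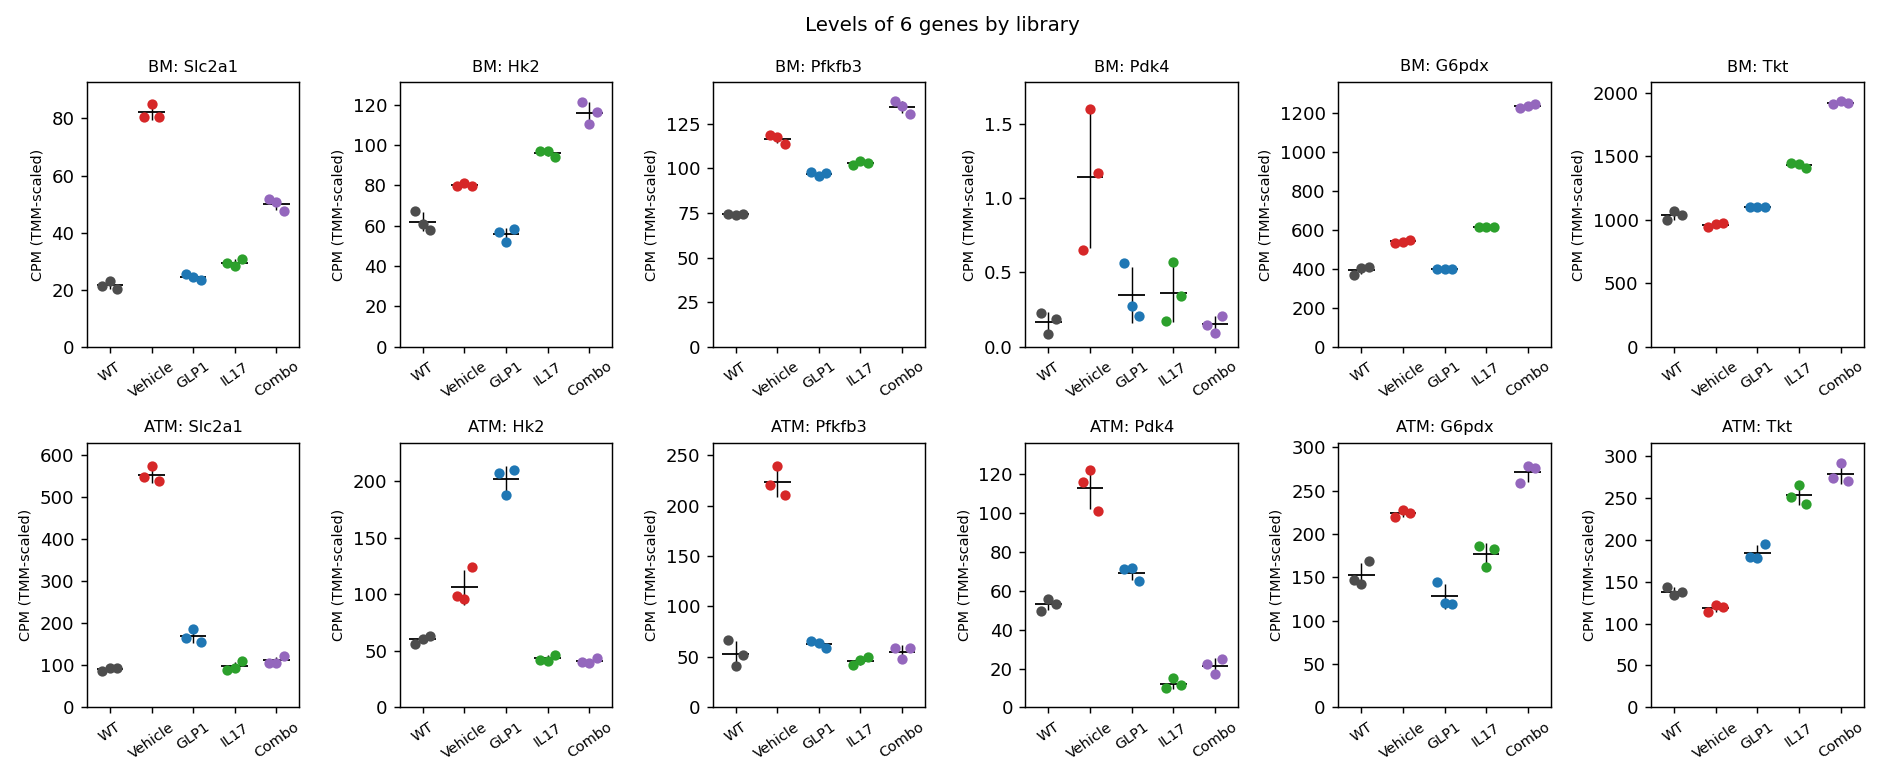
Levels of Slc2a1, Hk2, Pfkfb3, Pdk4, G6pdx and Tkt (y axis, TMM-scaled CPM, starting at 0, each panel with its own scale) in each library by group (x axis), with BM in the upper row and ATMs in the lower row. Points are libraries, lines group means and bars 1 SD (n = 3); G6pdx and Tkt are highest in Combo of BM, and Slc2a1 and Pfkfb3 are highest in Vehicle of ATMs.

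The effects differed between the tissues for many of the 34 genes. In 1 fit of all 30 libraries, the difference between ATMs and BM passed a false discovery rate of 0.05 for 25 genes in Vehicle vs WT, 22 in GLP1 vs Vehicle, 30 in IL17 vs Vehicle and 27 in Combo vs Vehicle. Among the 13076 genes of both tables, 56%, 53.4%, 56.4% and 55.1% passed. In Vehicle vs WT, the differences on the log2 scale were 3.61 (SE 0.10) for Slc16a3 and 3.07 (SE 0.18) for Slc2a6, which rose in both tissues, and 2.88 (SE 0.09) for Hk3, which fell in BM and rose in ATMs. That fit shared the spread of a gene between the tissues, although the spread was larger in ATMs. For Slc16a3 and Hk3, the SE of the difference was below that in ATMs alone, so it can be too small.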

How the data were processed

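Per the labels and the study's methods, the authors aligned reads with STAR 2.7.2a to mm10 and counted them with featureCounts 2.0.1 on GENCODE M22 genes, without strand, and with reads over several genes counted for each. The deposited values are raw counts per gene, from which genes with low counts had already been removed. They were tested with edgeR 4.0.16 (R 4.3.3). For each tissue, TMM scaling and filterByExpr, which removed 0 genes, preceded a single quasi-likelihood model over 15 libraries, with all tests 2-sided and p-values adjusted by Benjamini-Hochberg over all genes tested. A gene rose or fell at an adjusted p below 0.05. The SE of a log2 fold change is its absolute value divided by the square root of the F statistic of its test. Lengths are exon lengths of GENCODE M21. Per-library values are given for at most 4 genes with the largest change beyond 1 per comparison and tissue, for Hk1, Hk2 and Pdk4 in ATMs, and otherwise as ranges. The genes, lists and tests were chosen with earlier results of these data known. The fits were tested on simulated data. Correlations of same-numbered libraries were -0.0842 to 0.193 in BM and -0.0511 to 0.0345 in ATMs, so the numbers were not taken as pairs. Alternatives were DESeq2 1.42.0, its size factors, total-count scaling, other filters, only the groups compared, a replicate block and leaving out each library.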

Additional observations from a re-analysis of the deposited data

Results flagged for a closer look

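For 22 pairs of a gene and a comparison, the gene moved in opposite directions in BM and ATMs, each past a false discovery rate of 0.05, and the difference between the tissues passed as well in the fit of all 30 libraries. Differences are ATMs minus BM on the log2 scale, and no explanation was tested.

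In Vehicle vs WT, the difference was 2.88 for Hk3, 1.62 for Pfkfb4, 1.26 for Pgd and 1.63 for Taldo1, all higher in Vehicle of ATMs and lower in Vehicle of BM. In GLP1 vs Vehicle, it was 1.45 for Hk2, -1.24 for Pfkfb4 and -1.01 for Taldo1. In IL17 vs Vehicle, it was -0.70 for Slc2a3, -1.58 for Hk2, -1.06 for Pfkfb4, 1.24 for Pdk3, -0.55 for G6pdx and -0.74 for Taldo1, of which Slc2a3, G6pdx and Taldo1 no longer moved in opposite directions with total-count scaling. In Combo vs Vehicle, it was -1.04 for Slc2a3, -1.70 for Hk1, -1.86 for Hk2, -0.63 for Pkm, -1.32 for Ldhb, -1.78 for Slc16a3, -2.18 for Pfkfb3, -1.36 for Pfkfb4 and 0.78 for Pdk3, of which Slc2a3, Pkm and Ldhb depended on the scaling in the same way. Pfkfb4 was among the genes with opposite directions in all 4 comparisons, but its change in ATMs did not pass with total-count scaling in IL17 and Combo vs Vehicle, without IL17 replicate 3 in the first or without Combo replicate 3 in the second. In Combo vs Vehicle of ATMs, the change of Ldhb did not pass with only the groups compared or without Vehicle replicate 1 or Combo replicate 3, and that of Slc2a3 did not pass without Combo replicate 1. The change of Taldo1 in IL17 vs Vehicle of ATMs did not pass with at least 10 counts in every library, with only the groups compared, without Vehicle replicate 1 or without any 1 of the IL17 libraries.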

How the results depend on the processing

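All counts of genes past a false discovery rate of 0.05 in either direction stayed within 1.5 times their value, and all medians over the 34 genes except that of Combo vs Vehicle in ATMs kept their direction, under DESeq2 1.42.0, its size factors in edgeR, total-count scaling, filters on low counts, only the groups compared, the replicate block and leaving out each library in turn. Counts with a log2 fold change beyond 1 did so too, except in BM for Combo vs GLP1, with 6 in place of 10 under total-count scaling, and for Combo vs IL17, where the 1 gene fell to 0 under DESeq2, its size factors, at least 10 counts in every library and only the groups compared. Without 1 library that last count ranged from 0 (without Combo replicate 3) to 2 (without IL17 replicate 1 or Combo replicate 2). Counts by direction moved further under total-count scaling: in ATMs from 8 to 16 higher and 20 to 11 lower in Combo vs Vehicle and from 21 to 13 lower in IL17 vs Vehicle, and in BM from 3 to 5 lower in Combo vs GLP1, 4 to 8 lower in Combo vs IL17 and 6 to 10 below additivity. Without ATM IL17 replicate 1, those lower in Combo vs IL17 of ATMs went from 4 to 2. The medians of IL17 vs Vehicle kept their sign under total-count scaling but shrank to -0.015 in BM and -0.0094 in ATMs. The cause was not tested.

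Total-count scaling, which moves the median of all genes, turned 20 values. In BM, GLP1 vs Vehicle became 0.0821 for Hk1 and 0.13 for Pgd. In ATMs, IL17 vs Vehicle became 0.0405 for Slc2a3, 0.0385 for Gpi1, 0.00705 for G6pdx and 0.22 for Taldo1. Combo vs Vehicle in ATMs became 0.13 for the median of the 34 genes, 0.13 for Slc2a3, 0.0936 for Pfkp, 0.0211 for Tpi1, 0.23 for Pgam1, 0.13 for Pkm, 0.15 for Ldha and 0.11 for Ldhb. In BM, Taldo1 became -0.0685 in Combo vs WT and -0.0525 in Combo vs IL17, Pdha1 -0.106 in Combo vs IL17, and the departure from additivity became -0.0512 for Slc2a3, -0.21 for Pfkfb4 and -0.197 for Tkt. No other alternative turned a value. Over all comparisons and alternatives, a single gene's value lost significance 134 times while keeping its direction.

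The replicate block gave 34, 32, 33 and 32 genes past the test in BM and 31, 29, 28 and 26 in ATMs for Vehicle vs WT, GLP1, IL17 and Combo vs Vehicle, and the calls it ended were those of Hk3 in IL17 vs Vehicle and of Gpi1 and Pgam1 in Combo vs Vehicle, all in ATMs. Counts were lowest for Pdk4 in BM, Aldoc and Eno1 in both tissues and Pfkm in ATMs (23 to 112 in Vehicle), which limits their precision, and Pdk4 could not be tested in BM with at least 10 counts in every library.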

Other observations

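Genes of the same pathways outside the 34 were read from lists of 55 other pathway genes and 18 targets of hypoxia-inducible factors outside glycolysis. Of the 17 targets measured in BM, 15 rose and 1 fell in Vehicle vs WT (37.8% and 38.8% of all genes), with a median log2 fold change of 0.60 against -0.02 over all genes. Ddit4, a stress-induced inhibitor of mTORC1, was 134 to 138 CPM in Vehicle of BM, 19.2 to 22.8 CPM in WT and 16.7 to 18.9 CPM in Combo. With treatment, 2 rose and 14 fell in GLP1 (36.5% and 36.3% of all genes, median -0.66 against 0.01), 2 rose and 10 fell in IL17 (36.4% and 36.6%, median -0.23 against 0.01), and 5 rose and 8 fell in Combo (37.9% and 35.8%, median 0.05 against 0.02). In ATMs, 12 of 17 rose and 2 fell in Vehicle vs WT (24.3% and 32.6% of all genes, median 1.03 against -0.21), while with GLP1 3 rose and 12 fell (31.8% and 22%), with IL17 1 rose and 13 fell (33.1% and 25%), and with Combo 2 rose and 9 fell (25% and 23.7%). Ndrg1 in ATMs was 1054 to 1132 CPM in Vehicle, 228 to 278 CPM in WT and 180 to 192 CPM in Combo, and Adm, which encodes adrenomedullin, was 422 to 464 CPM in Vehicle, 157 to 162 CPM in WT and 52.4 to 57.2 CPM in IL17. These values show the highest level in Vehicle in each case.

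Of 40 other pathway genes measured in BM, 10 rose and 23 fell in Vehicle vs WT (37.8% and 38.8% of all genes). Pklr, the pyruvate kinase of red cells and liver, was 13.8 to 18.02 CPM in Vehicle, 44.9 to 48.1 CPM in WT and 58.0 to 60.3 CPM in GLP1, and Bpgm, which makes 2,3-bisphosphoglycerate in red cells, was 51.7 to 54.8 CPM in Vehicle, 146 to 156 CPM in WT and 220 to 223 CPM in GLP1. The summed erythroid markers had the same lowest and highest groups, at 1003 to 1026 CPM in Vehicle and 2882 to 2923 CPM in GLP1, and their part in these values was not tested. Of 52 measured in ATMs, 9 rose and 24 fell (24.3% and 32.6% of all genes). Fbp1, an enzyme of gluconeogenesis, was 0 to 1.504 CPM in Vehicle, 14.8 to 20.2 CPM in WT, 34.03 to 36.9 CPM in GLP1, 61.3 to 68.9 CPM in IL17 and 1.28 to 1.54 CPM in Combo. Ldhc, the lactate dehydrogenase of germ cells, averaged 0.507 CPM in Vehicle and 41.4 CPM in WT, 111 CPM in GLP1 and 165 CPM in IL17, and the 7 measured epididymal genes summed to 3000 to 3147 CPM in WT, 59.0 to 66.5 CPM in GLP1, 166 to 198 CPM in IL17 and 2.35 CPM or less in Vehicle and Combo. Ldhc and these genes thus had different orders among WT, GLP1 and IL17.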
